A study of Homo sapiens with 6 samples.

Results

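Metallothioneins are small cysteine-rich proteins of the cytosol and nucleus that bind zinc, copper and cadmium through clusters of thiolates, and in most tissues they buffer free zinc and blunt metal toxicity. The zinc finger transcription factor MTF1 senses zinc, enters the nucleus and binds metal response elements in the promoters of the metallothionein genes and of SLC30A1, the gene of ZnT1, which exports zinc across the plasma membrane. Metal loading, glucocorticoids and oxidative stress are known to induce the family. The genes described here are the metallothionein genes MT1E, MT1F, MT1G, MT1M, MT1X and MT2A, their regulator MTF1 and the exporter gene SLC30A1. They were chosen by gene symbol, and all 8 were found among the 58233 gene rows of the deposited table, 1 row for each.

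The values come from RNA sequencing of HGC-27, a line from an undifferentiated human gastric cancer. One group of 3 libraries came from cells given a mixture of siRNAs against STRN3 (labelled siSTRN3) and the other group of 3 from cells given a negative control siRNA (labelled siNC). Both groups received their siRNA with the same lipid transfection reagent for 72 h, so neither is untreated. The design tests what lowering STRN3, the gene of the phosphatase 2A adaptor striatin-3, does to the transcriptome. Nothing in the labels says that the libraries of a group are separate cultures, so the p-values speak only of the variation among these 6 libraries, part or all of which may be technical.

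The sequences show why the members are taken both singly and as a sum. The coding sequences of MT2A, MT1X and MT1E are printed from GENCODE release 29, with capitals at the bases of MT1X and MT1E that differ from MT2A, because MT2A and MT1X carry nearly all of the measured signal and MT1E is the third metallothionein member with any signal.
MT2A: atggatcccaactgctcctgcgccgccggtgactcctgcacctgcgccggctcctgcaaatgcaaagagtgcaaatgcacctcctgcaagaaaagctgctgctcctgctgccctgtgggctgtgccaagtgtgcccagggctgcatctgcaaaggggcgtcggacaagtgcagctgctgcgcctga
MT1X: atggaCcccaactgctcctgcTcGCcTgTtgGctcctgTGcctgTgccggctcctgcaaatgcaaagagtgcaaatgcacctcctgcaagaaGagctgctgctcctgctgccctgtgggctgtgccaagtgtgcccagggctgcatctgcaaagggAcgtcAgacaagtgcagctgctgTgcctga
MT1E: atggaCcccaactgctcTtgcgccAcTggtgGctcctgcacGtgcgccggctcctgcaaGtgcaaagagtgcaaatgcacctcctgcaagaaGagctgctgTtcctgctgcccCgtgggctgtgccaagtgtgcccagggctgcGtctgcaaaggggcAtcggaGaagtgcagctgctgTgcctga
Each of the 6 coding sequences had 186 bases, and 20 of its 61 codons encode cysteine, the residue that holds the metal. MT1X and MT1E each differed from MT2A at 14 bases, and the identity between any pair of the 6 coding sequences was 88.7% to 95.2%. The genes differ more outside the coding part. Of all stretches of 100 bases in the main MT2A transcript, 0% occurred in a transcript of another gene, and 4.88% did so for stretches of 50 bases. For MT1X these shares were 19.1% and 45.1%. The 100-base matches of MT1X were all to AC026461.1, a noncoding gene that overlaps its exons on the same strand and was listed at 0 in all 6 libraries. Neither the read length nor the handling of multiply matching reads is given in the sources used here, so some exchange of reads between MT1X and its relatives cannot be told apart from its own expression.

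The promoters are shown because MT2A and MT1X, which both fell, and SLC30A1 are known targets of MTF1. The 250 bases before the RefSeq start (GRCh38.p14) are printed for MT2A (chr16:56608334-56608583, plus strand), MT1X (chr16:56682220-56682469, plus strand), SLC30A1 (chr1:211579162-211579411, minus strand) and MTF1 (chr1:37859593-37859842, minus strand). Capitals mark matches on either strand to the core of the metal response element, searched as TGCACNC and TGCGCNC, with overlapping matches counted as 1 site.
MT2A: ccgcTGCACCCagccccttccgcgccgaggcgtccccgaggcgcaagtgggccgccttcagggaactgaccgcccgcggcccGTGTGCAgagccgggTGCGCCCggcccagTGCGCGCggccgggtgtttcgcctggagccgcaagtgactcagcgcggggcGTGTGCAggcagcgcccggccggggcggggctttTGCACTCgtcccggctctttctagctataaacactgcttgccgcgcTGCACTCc
MT1X: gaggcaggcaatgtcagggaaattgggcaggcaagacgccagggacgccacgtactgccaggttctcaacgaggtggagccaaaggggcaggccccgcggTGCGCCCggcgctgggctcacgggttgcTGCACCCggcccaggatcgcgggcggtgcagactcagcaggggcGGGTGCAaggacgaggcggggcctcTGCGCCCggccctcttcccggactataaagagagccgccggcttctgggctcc
SLC30A1: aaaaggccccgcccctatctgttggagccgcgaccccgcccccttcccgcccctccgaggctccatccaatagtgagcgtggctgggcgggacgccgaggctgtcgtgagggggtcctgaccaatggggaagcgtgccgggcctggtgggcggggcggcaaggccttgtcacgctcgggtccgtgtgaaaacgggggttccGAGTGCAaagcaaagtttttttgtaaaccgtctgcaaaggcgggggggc
MTF1: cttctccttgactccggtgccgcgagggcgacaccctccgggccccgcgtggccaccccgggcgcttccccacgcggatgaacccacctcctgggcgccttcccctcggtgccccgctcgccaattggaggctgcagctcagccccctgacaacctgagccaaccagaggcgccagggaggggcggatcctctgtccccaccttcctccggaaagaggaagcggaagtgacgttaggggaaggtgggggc
In the window from 250 bases before to 50 bases after the start, MT2A held 8 sites, 7 of them in the printed stretch, MT1X held 4, SLC30A1 held 2, of which 1 is printed, and MTF1 held 0. Of 23263 promoter windows matched to rows of the table, 32.7% held at least 1 such site, 8.61% at least 2 and 0.37% at least 4, and 0.0172% at least 8. Promoters of 3 other metallothionein genes were matched, and MT1H held 8 sites, MT1B 3 and MT4 3. MT1H and MT1B were listed at 0 in all libraries. The counts and positions rest on the RefSeq starts, which differ from those of GENCODE. The printed MT2A stretch lies inside the GENCODE gene (56608199 to 56609497), and that of SLC30A1 stops short of the GENCODE start at 211578742. A match of these letters is a description of the sequence, not a measured binding site.

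**Figure D1:**
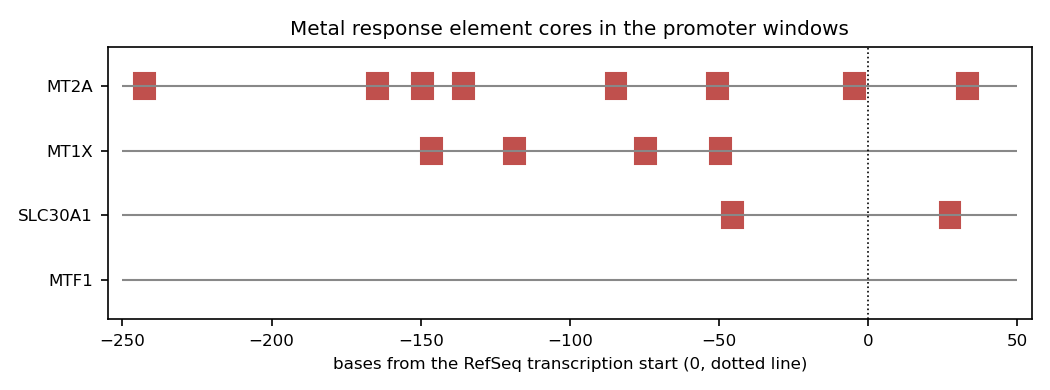
Positions of metal response element cores (red blocks, each drawn 7 bases wide from the first base of the site) along the promoter windows of MT2A, MT1X, SLC30A1 and MTF1, in bases from the RefSeq transcription start. MT2A shows 8 sites, MT1X 4, SLC30A1 2 and MTF1 0.

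All values are in TPM, in which a gene's reads are corrected for its length and then set against the library's total. Read numbers cannot be had from TPM, and the depth of each value is unknown. The targeted gene goes against the label. STRN3 (chromosome 14, 30893799 to 31026401, GRCh38) had 4.76, 5.0 and 5.56 TPM in the libraries labelled siSTRN3, against 3.51, 5.30 and 3.85 TPM in the siNC libraries, so higher and lower are said of libraries by their labels, siSTRN3 over siNC. Protein-coding genes held 51.6% to 52.9% of the TPM in the libraries labelled siSTRN3 and 76.8% to 78.2% in the siNC libraries. On the deposited scale the median log2 fold change of the 13004 tested rows was -0.57. Fold changes are therefore given on log2(TPM + 1) after each library was multiplied by 1 factor that equalised the median tested row, here called relative to the median gene, and TPM are given as deposited. On that scale STRN3 stood at 0.77 ± 0.13 SE (limma, adjusted p = 0.00894), and on the deposited scale at 0.24, where it was not called (limma, adjusted p = 0.142). In the authors' deposited table, a separate test whose direction is not given here, its adjusted p was 9.5e-14. Rows were tested where at least 3 libraries had 1 TPM or more, and a row was called at an adjusted p under 0.05.

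MT2A and MT1X fell, SLC30A1 and MTF1 were not called, and the other metallothionein members were listed at or near 0. Of the 8 members 4 passed the filter on low values, and 2 of these fell while 0 rose, in a table where 21.3% of tested rows were called and 10.4% were called lower. The 4 tested members had a median log2 fold change of -0.22, beside -0.0063 over all tested rows.

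MT2A (chromosome 16, 56608199 to 56609497, plus strand) is expressed in most human tissues. Its level was 135.95, 127.17 and 138.39 TPM in the libraries labelled siSTRN3, against 276.51, 296.80 and 304.57 TPM in the siNC libraries. All 3 libraries labelled siSTRN3 lay below all 3 siNC libraries. On the deposited scale the groups did not overlap in 83.3% of tested rows, and in 82.2% the siSTRN3 libraries were the lower ones. After rescaling, the levels were 169.9, 161.5 and 171.5 TPM in libraries labelled siSTRN3 and 221.1, 234.2 and 245.3 TPM in siNC libraries, and the groups still did not overlap, which on this scale held for 42.4% of tested rows, and for 21.8% in the same direction. On the scale of the median gene MT2A fell to 0.718 of its siNC level (log2 fold change -0.47 ± 0.045 SE, limma, adjusted p = 0.00143). Only 3.72% of tested rows had a lower fold change.

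MT1X (chromosome 16, 56682424 to 56684196, plus strand), a classical metal-inducible isoform, stood at 111.51, 110.35 and 109.53 TPM in the libraries labelled siSTRN3, against 217.82, 203.91 and 214.67 TPM in the siNC libraries. The 3 libraries labelled siSTRN3 were close to each other, and again all lay below the siNC libraries, also after rescaling (135.8 to 140.2 TPM against 160.9 to 174.2 TPM). Such a separation with siSTRN3 lower was found in 82.2% of tested rows as deposited and in 21.8% after rescaling. On the same scale MT1X fell to 0.818 of its siNC level (log2 fold change -0.29 ± 0.038 SE, limma, adjusted p = 0.00418), and 11.4% of tested rows had a lower fold change. Both genes were lower on every scale that was tried. On the deposited scale their log2 fold changes were -1.12 for MT2A and -0.93 for MT1X, and 3 of the 4 tested members were called there, where 81.8% of all tested rows were called. By level, MT2A ranked 466 to 503 among all rows in libraries labelled siSTRN3 and 321 to 354 in siNC libraries.

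The proportion between the 2 genes was also compared. MT2A was 1.22, 1.15 and 1.26 times as high as MT1X in the libraries labelled siSTRN3, against 1.27, 1.46 and 1.42 times in the siNC libraries. This ratio of TPM does not depend on the scale. Its mean was 1.21 ± 0.0559 in libraries labelled siSTRN3 and 1.38 ± 0.0986 in siNC libraries (SD, n = 3), and the exact 2-sided permutation test gave p = 0.1, its lowest possible value at this group size. The ranges did not overlap, but the highest siSTRN3 ratio and the lowest siNC ratio were close.

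Summed over the 6 metallothionein members, the level was 247.58, 237.64 and 247.92 TPM in the libraries labelled siSTRN3, against 494.33, 500.71 and 519.24 TPM in the siNC libraries. The sum varied little within either group. Its mean was 244 ± 5.84 TPM in libraries labelled siSTRN3 and 505 ± 12.9 TPM in siNC libraries (SD, n = 3), and after rescaling 306 ± 3.92 TPM against 403 ± 13.2 TPM. The sum stood at 0.484 of its siNC level as deposited and at 0.760 relative to the median gene, a difference of -0.39 on the log2 scale. Because the sum is made of chosen genes, no p is given for it. The sum depends less than a single gene on how reads were split between MT2A, MT1X and their relatives within the family. It is not free of that split, since TPM divide each gene's reads by its own length. As a share of the TPM of protein-coding genes, the 6 metallothioneins took 0.0484% ± 0.00115 in libraries labelled siSTRN3 and 0.066% ± 0.00161 in siNC libraries.

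**Figure D2:**
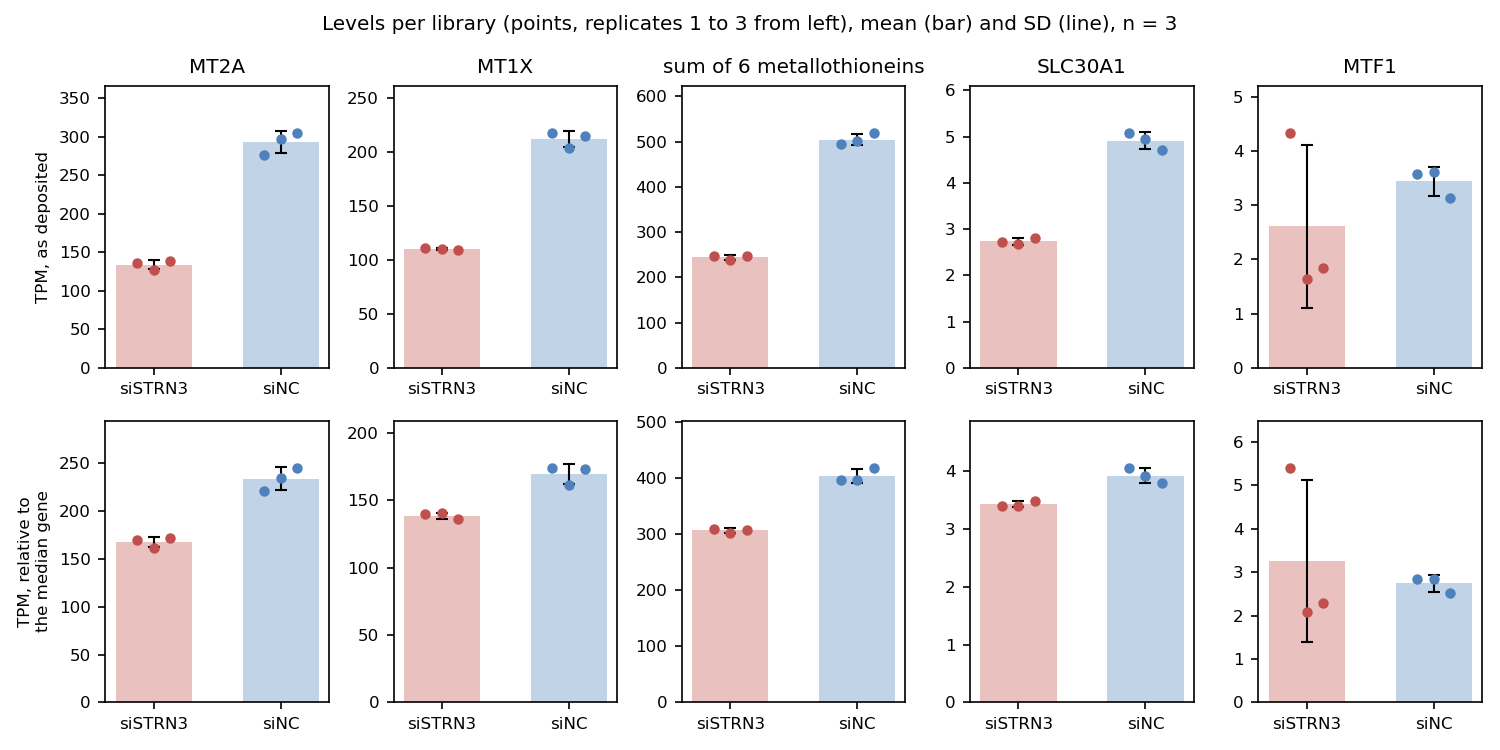
Levels of MT2A, MT1X, the sum of the 6 metallothionein members, SLC30A1 and MTF1 in each library, in TPM as deposited (upper row) and relative to the median gene (lower row), with siSTRN3 left and siNC right. Points are libraries, bars the mean and lines the SD of 3 libraries. MT2A, MT1X, the sum and SLC30A1 show no overlap between the groups, which held for 83.3% of tested rows as deposited and 42.4% rescaled. For MTF1, siSTRN3 replicate 1 stands above all other libraries at 4.33 TPM.

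MT2A made up 53.5% to 55.8% of the summed level in libraries labelled siSTRN3 and 55.9% to 59.3% in siNC libraries, and nearly all of the rest was MT1X. MT1E was listed at 0.12, 0.12 and 0.0 TPM in the libraries labelled siSTRN3 and at 0 in the 3 siNC libraries. MT1F, MT1G and MT1M, which are inducible by metals in other human cells, were listed at 0 in all 6 libraries. An exact 0 in a table without counts can be a failed estimate, so no fold is given for these genes. Of 20 widely expressed housekeeping genes, looked up after the values were seen, 0 were listed at 0 in any library, and the lowest value was 5.13 TPM. This look-up cannot tell a failed estimate from absence for MT1F, MT1G and MT1M, since it covers other, widely expressed genes.

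The other annotated metallothionein rows add little. Of 14 in the table, 12 were at 0 throughout, among them MT1A, MT1B, MT1H and the brain isoform MT3. The pseudogene MT1L was listed at 0.27 TPM in siNC replicate 2 and at 0 elsewhere. MT4, an isoform known from stratified squamous epithelium, was listed at 1.37, 1.32 and 0.0 TPM in libraries labelled siSTRN3 and at 1.30, 2.47 and 0.0 TPM in siNC libraries. In each group 1 library was at 0, and MT4 was not called (log2 fold change 0.091 ± 0.52 SE, limma, adjusted p = 0.918), its sign turning on the deposited scale. With all 20 metallothionein rows, the sum was 245 ± 5.49 TPM in libraries labelled siSTRN3 and 506 ± 12 TPM in siNC libraries (SD, n = 3).

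MTF1 (chromosome 1, 37809567 to 37859620, minus strand), the zinc-sensing activator of the family, was low in every library. It had 4.33, 1.64 and 1.85 TPM in the libraries labelled siSTRN3, against 3.57, 3.61 and 3.13 TPM in the siNC libraries. The libraries labelled siSTRN3 disagreed: replicate 1 was the highest of all 6 libraries and replicates 2 and 3 were the lowest. No difference was called (log2 fold change 0.11 ± 0.27 SE, limma, adjusted p = 0.810). The direction rests on 1 library, since without siSTRN3 replicate 1 the value was -0.23 (adjusted p = 0.163, within a range of 0.163 to 0.921 over the leave-outs). It also turned on the deposited scale, at -0.37. In the authors' deposited table the adjusted p of MTF1 was 0.00174, and those of MT2A, MT1X and SLC30A1 were 4.59e-22, 0.00208 and 0.115. The directions of the authors' tests are not given here. The authors' deposited table marks these 4 genes and STRN3 with a call of no.

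SLC30A1 (chromosome 1, 211571568 to 211578742, minus strand), a known target of MTF1 outside the metallothionein family, had 2.72, 2.67 and 2.81 TPM in the libraries labelled siSTRN3, against 5.08, 4.96 and 4.71 TPM in the siNC libraries. The groups did not overlap, as in 83.3% of tested rows on the deposited scale. After rescaling they still did not, at 3.392 to 3.483 TPM in libraries labelled siSTRN3 against 3.793 to 4.063 TPM in siNC libraries. On that scale this held for 42.4% of tested rows, and for 21.8% in the same direction. Relative to the median gene its log2 fold change was -0.15 ± 0.071 SE and was not called (limma, adjusted p = 0.167). On the deposited scale, where 80.8% of tested rows were called lower, it was called at -0.66 ± 0.073 SE (limma, adjusted p = 1.53e-04). At levels of a few TPM the added 1 in log2(TPM + 1) understates the difference, and the ratio of the rescaled means was 0.873.

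**Figure D3:**
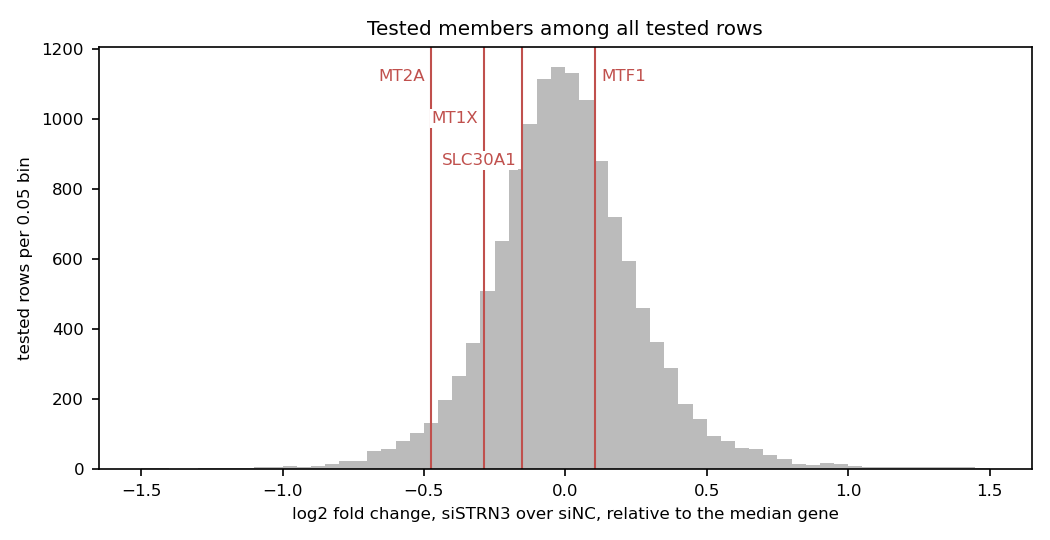
Log2 fold changes, siSTRN3 over siNC, of the tested rows relative to the median gene, in bins of 0.05, with the 4 tested members as red lines. MT2A at -0.47 and MT1X at -0.29 lie in the lower tail, SLC30A1 at -0.15 and MTF1 at 0.11 within the bulk.

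The metallothionein genes of chromosome 16 lie in 1 cluster, and its 2 expressed genes stand apart from each other. MT1X starts 74.2 kb from MT2A (GENCODE starts), and the 11 annotated metallothionein rows between them ranged from 0 to a group mean of 0.09 TPM. Of 9 listed neighbours of the cluster 5 were tested, 0 rose and 1 fell, with a median of -0.12. Over all tested rows 11% were called higher and 10.4% lower. The count of neighbours called was 2 without siSTRN3 replicate 2 and also 2 without siSTRN3 replicate 3. BBS2, a subunit of the ciliary BBSome complex, was the tested neighbour whose start lay nearest to that of MT2A. On the side of MT1X the nearest was NUP93. As deposited BBS2 had 23.3 ± 1.36 TPM in libraries labelled siSTRN3, against 47.5 ± 3.59 TPM in siNC libraries. Relative to the median gene BBS2 fell to 0.771 of its siNC level (log2 fold change -0.36 ± 0.060 SE, limma, adjusted p = 0.00891). NUDT21, a subunit of the pre-mRNA cleavage factor, was at -0.15 (limma, adjusted p = 0.0723), and OGFOD1, a prolyl hydroxylase gene, at 0.17 (limma, adjusted p = 0.0972; -0.46 as deposited), and neither was called. Without siSTRN3 replicate 3 NUDT21 was called (-0.19, adjusted p = 0.0427, within a range of 0.0427 to 0.177 over the leave-outs). NUP93, a nuclear pore gene, was at -0.12 and not called (limma, adjusted p = 0.166), but it was called without siSTRN3 replicate 2 (-0.18, adjusted p = 0.0319, within a range of 0.0319 to 0.342 over the leave-outs). Scaled to the protein-coding total, NUDT21 (-0.20, limma, adjusted p = 0.0337) and NUP93 (-0.17, limma, adjusted p = 0.0475) were both called.

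**Figure D4:**
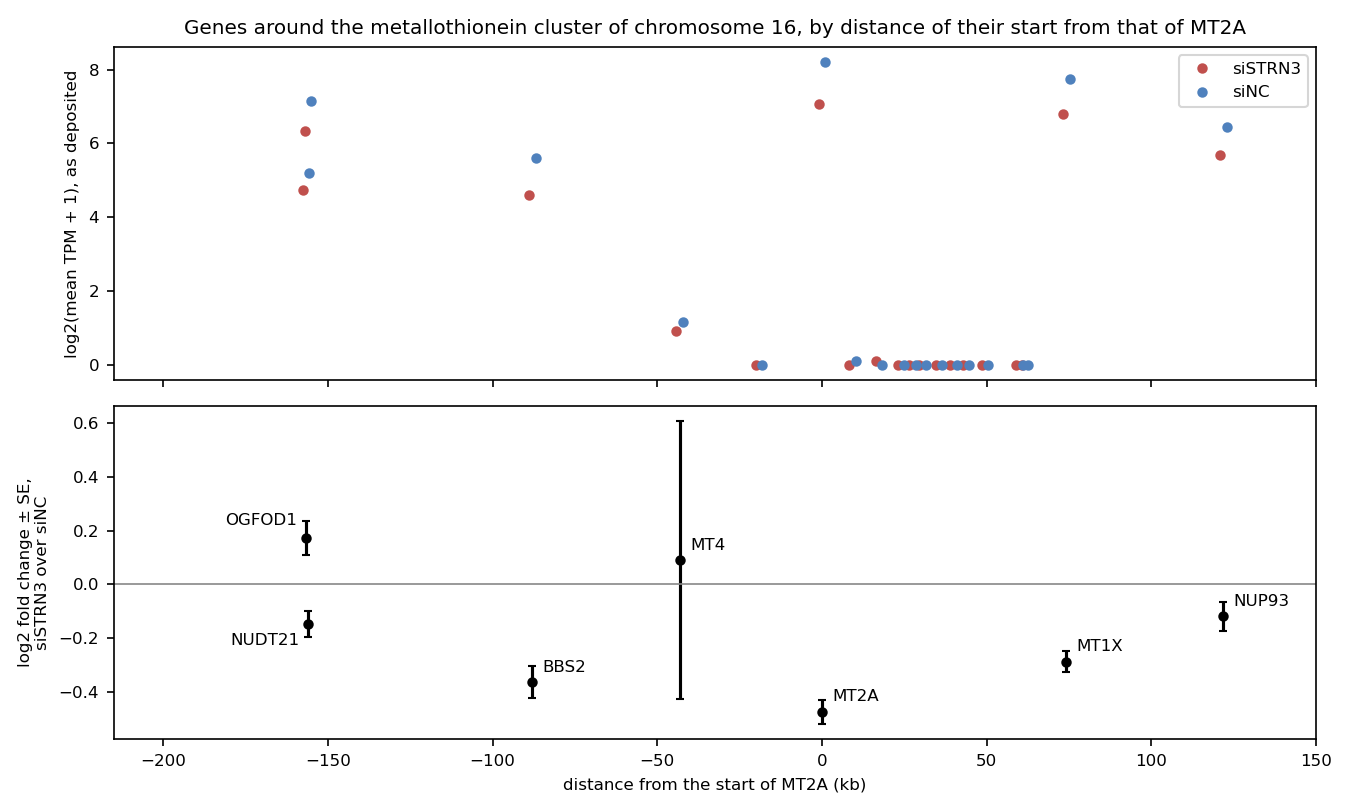
Genes around the start of MT2A, by distance in kb, on chromosome 16. The upper panel gives log2(mean TPM + 1) as deposited for siSTRN3 and siNC, with points set slightly apart for legibility, and the lower panel the log2 fold change relative to the median gene with its SE for tested genes. MT2A and MT1X are high at either end of a stretch of rows at or near 0, and OGFOD1 and MT4 lie above 0 on this scale, while NUDT21, BBS2, MT2A, MT1X and NUP93 lie below it.

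Other zinc transporter genes had values on both sides of the median gene. Of 9 further exporter genes of the SLC30 family 5 were tested. Relative to the median gene 0 were called, beside 21.3% of all tested rows. The median of the 5 was 0.19, and 3 had an unadjusted p under 0.05, as had 36.7% of all tested rows. The smallest adjusted p-values were those of SLC30A5, a transporter of the early secretory pathway (0.19 ± 0.055 SE, limma, adjusted p = 0.0542), and SLC30A9, a mitochondrial zinc transporter (0.54 ± 0.18 SE, limma, adjusted p = 0.0775). SLC30A3, known from synaptic vesicles, was at 0.33, SLC30A7, a Golgi transporter, at -0.21 and SLC30A6, named after its values were seen, at -0.14. On the deposited scale 3 of the 5 were called lower, as were 80.8% of all tested rows. There SLC30A5, SLC30A9 and SLC30A3 turned to values below 0.

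Among 14 importer genes of the SLC39 family 10 were tested, 1 rose and 2 fell, with a median of -0.058. Over all tested rows 11% were called higher and 10.4% lower. SLC39A10, a plasma membrane zinc importer, had 3.98, 3.91 and 4.32 TPM in the libraries labelled siSTRN3 and 4.86, 4.72 and 5.29 TPM in the siNC libraries. Relative to the median gene it rose by 0.30 ± 0.077 SE (limma, adjusted p = 0.0358), while as deposited it was lower, at -0.23. SLC39A9, an importer of the secretory pathway and plasma membrane, fell (-0.19 ± 0.043 SE, limma, adjusted p = 0.0257), as did SLC39A14, which carries zinc, iron and manganese (-0.19 ± 0.054 SE, limma, adjusted p = 0.0487). These calls were close to the threshold: those of SLC39A10 and SLC39A14 ended without any one of the 6 libraries (adjusted p = 0.0564 to 0.118 and 0.0528 to 0.140), and that of SLC39A9 without any one except siSTRN3 replicate 2 (highest adjusted p = 0.0884). SLC39A7, which releases zinc from the endoplasmic reticulum, was not called, at 0.099 (limma, adjusted p = 0.0609).

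Copper-handling genes were not called. Of 11 genes on 12 tested rows, 0 passed (limma), where 21.3% of all tested rows did, and the median was -0.0076. COMMD1, a factor of copper export, was at 0.14 (limma, adjusted p = 0.151), the copper ATPase gene ATP7B at -0.21 (0.158), the copper importer gene SLC31A1 at -0.094 (0.314) and COX11, which delivers copper to cytochrome oxidase, at -0.17 (0.399). At an unadjusted p under 0.05 the count was 0 of 12 rows, where 36.7% of all tested rows had such a p. As deposited, 10 of the 12 rows were called lower, as were 80.8% of all tested rows.

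Other genes of the response to metal stress or glucocorticoids went both ways. The list also holds regulators of these responses, HSF1 and NR3C1 among them. Of 19 listed 16 were tested, and 2 rose and 2 fell, with a median of -0.043. Over all tested rows 11% were called higher and 10.4% lower. HSF1, the heat shock transcription factor gene, had 14.8 ± 0.305 TPM as deposited in libraries labelled siSTRN3, against 31.2 ± 0.633 TPM in siNC libraries. Relative to the median gene HSF1 fell to 0.747 of its siNC level (log2 fold change -0.40 ± 0.042 SE, limma, adjusted p = 0.00192). DNAJB1, an HSP40 cochaperone gene and HSF1 target, fell (-0.13, limma, adjusted p = 0.0386), and its call ended without any one of the 6 libraries (adjusted p = 0.0604 to 0.104). GCLC, the catalytic subunit of glutathione synthesis, rose relative to the median gene (0.59 ± 0.097 SE, limma, adjusted p = 0.00874), with 8.83, 11.41 and 10.57 TPM in libraries labelled siSTRN3 and 10.47, 10.13 and 10.22 TPM in siNC libraries as deposited, a log2 difference of -0.0071. HMOX1, the heme oxygenase gene, rose as well (0.27, limma, adjusted p = 0.0483), but it was lower as deposited, at -0.30, and its call was lost in 5 of the 6 leave-outs, all but that of siNC replicate 3 (highest adjusted p = 0.124). NR3C1, the glucocorticoid receptor gene, named after its values were seen, was listed at 0 in the libraries labelled siSTRN3 and at 0, 0.01 and 0.01 TPM in the siNC libraries.

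**Figure D5:**
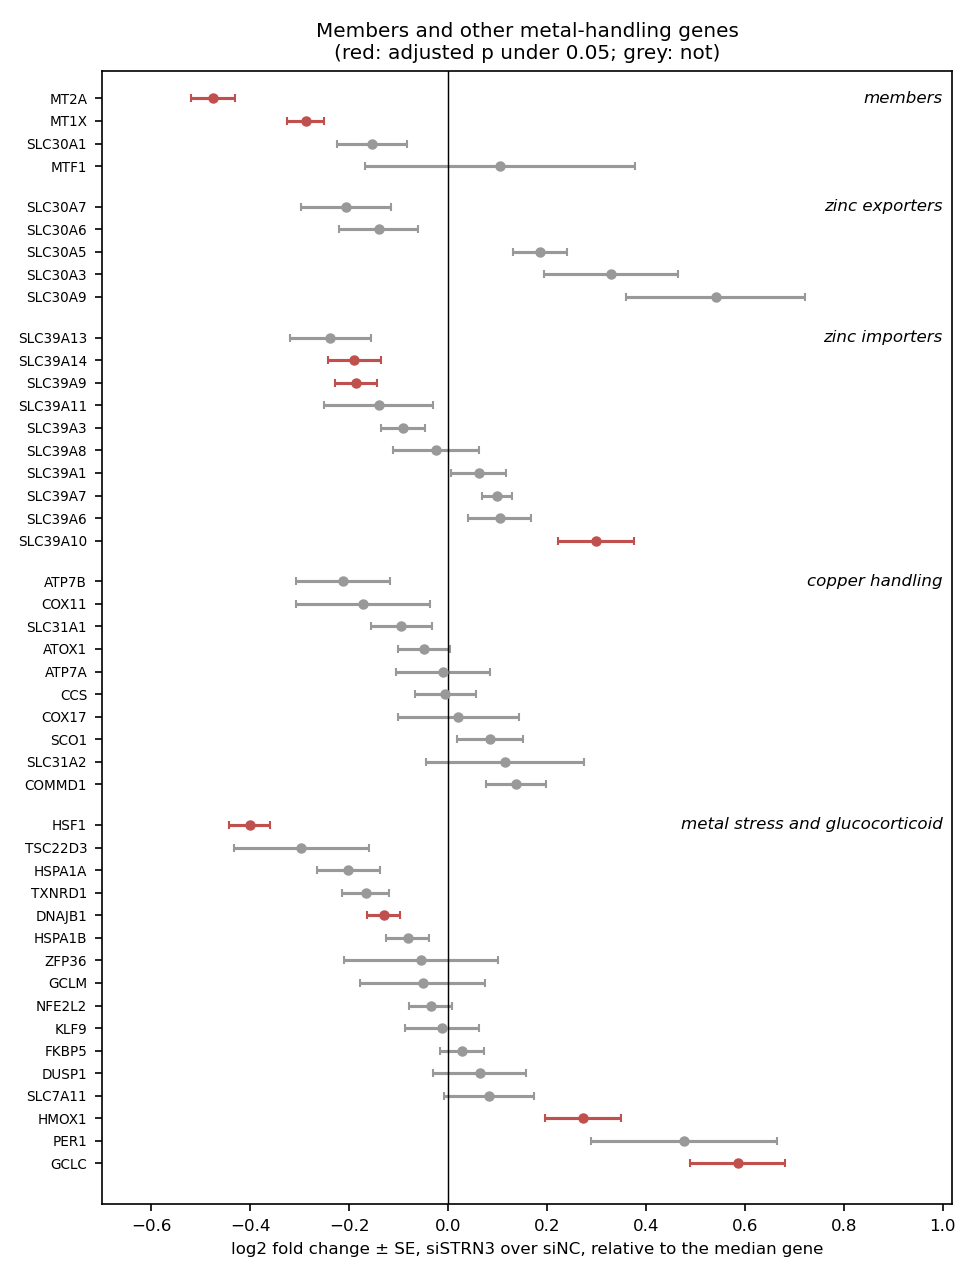
Log2 fold changes with SE, siSTRN3 over siNC, relative to the median gene, for the tested members, zinc exporters, zinc importers, copper-handling genes and other genes of metal stress or glucocorticoid response, with adjusted p under 0.05 in red and the rest in grey. SCO2, a copper chaperone gene on 2 rows, is left out. MT2A at -0.47 and HSF1 at -0.40 are the lowest genes shown and GCLC at 0.59 the highest.

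Across the 6 libraries, the genes whose rescaled log2 level followed the summed metallothioneins most closely were WDR1, an actin disassembly factor (Pearson r = 0.999), HSF1 (0.998), DDX47, an RNA helicase of ribosome synthesis (0.998), WBP11, a splicing factor (0.998), and RCOR2, a corepressor subunit (0.997). The search covered 7758 protein-coding genes with a mean of at least 5 TPM, of which 480 had r above 0.95, so such a likeness was common over 2 groups of 3. Since the metallothionein sum itself differed between the groups, genes chosen this way differ too, and their fold changes, -0.16 in DDX47 to -0.44 in WBP11, are given as a description.

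Message length and cell identity were set beside these values. Among tested protein-coding rows whose longest annotated transcript has at most 600 bases, the 73 rows had a median of 0.22, with 24 higher and 2 lower. All 11141 tested protein-coding rows had a median of -0.0048, with 1265 higher and 1225 lower. Neither MT2A nor MT1X belongs to this class of short messages. The main transcript of MT2A has 786 bases, which is above the limit. That of MT1X has 450 bases, but the longest annotated transcript of MT1X has 1727 bases, which places the gene outside the class. The part of length in the values of MT2A and MT1X was not tested. The listed markers of gastric epithelium were at or near 0. None of 9 reached 1 TPM in 3 libraries, the highest single value was 1.08 TPM, and MUC5AC, TFF1 and TFF2 were at 0. VIM, the intermediate filament gene of mesenchymal cells, had 1717.54 to 1753.25 TPM in libraries labelled siSTRN3 and 2983.63 to 3058.14 TPM in siNC libraries, a log2 fold change of -0.14 relative to the median gene (limma, adjusted p = 0.00882). Of the other mesenchymal markers, ZEB1 was at 0.31 (limma, adjusted p = 0.128; -0.20 as deposited) with 2.83 to 3.5 TPM in libraries labelled siSTRN3 and 3.35 to 4.59 TPM in siNC libraries, and CDH2 was at 0.11 TPM or less in every library. All 4 fibroblast markers were expressed, with a summed level of 226 to 240 TPM in libraries labelled siSTRN3 and 378 to 386 TPM in siNC libraries. DCN fell (-0.46, limma, adjusted p = 0.0019), LUM fell (-0.25, limma, adjusted p = 0.0211), COL1A1 rose relative to the median gene (0.44, limma, adjusted p = 0.0019; -0.21 as deposited) and PDGFRB was not called (0.28, limma, adjusted p = 0.183). Their part in the metallothionein result was not tested, and in RNA from whole cultures fewer cells of a type and less RNA per cell cannot be told apart. The 3 endothelial markers stayed at 0.02 TPM or less, and the 3 leukocyte markers at 0.89 TPM or less.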

How the data were processed

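Libraries were grouped and numbered by their titles. The authors deposited TPM for each library, per the file headers, together with p-values and adjusted p-values, made with DESeq2 per the name of the deposited table; they appear in the text under the name of the authors' deposited table, and the authors' mean TPM columns were not used. HISAT2, Cufflinks, RSEM and the build GRCh38.p10 are named in the submitters' processing notes, without roles. Not given in the sources used here are the annotation, strandedness and the handling of multiply matching reads. Of the table's rows, 2 without a gene were left out. TPM keeps no depth, so no counting interval can be given. Because TPM are shares, a larger share outside protein-coding genes lowers the values of those genes.

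Each library was multiplied by 1 factor (0.789 to 1.27) that equalised the median of the tested rows between libraries. limma-trend (limma 3.58.1, R 4.3.3, data.table version 1.17.8) was then run on log2(TPM + 1) over all 13004 tested rows, without a block, with Benjamini-Hochberg adjustment. The members and all gene lists were chosen with earlier results of these data known. One gene each was later taken out of the lists of cluster neighbours and of leukocyte markers and is not reported here. Named are STRN3, the members, the metallothionein rows above 0, up to 4 genes of each list with the smallest adjusted p, and the 5 genes most correlated with the metallothionein sum; others are marked as named later or belong to the marker lists. Alternatives were the deposited scale, scaling to the 75th percentile or to the protein-coding total, a pseudocount of 0.1, no filter or a filter at 5 TPM, a replicate block, and leaving out each library. On simulated data of the siSTRN3 over siNC comparison with 13004 genes, limma called 64 of 100 genes with a 1.5-fold change, 80 of 100 with a 2-fold change and 10 of 12804 unchanged ones.

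Gene types, positions, transcripts and coding sequences are from GENCODE release 29 by unique symbol, and promoters from RefSeq (GRCh38.p14), matched by symbol for MT2A, MT1X, MTF1 and SLC30A1 among the members. Shared stretches were searched with blastn (BLAST+ 2.17.0) and exact matching, and coding sequences were aligned with Biopython 1.88 (Python 3.11.15, pandas 2.3.3, numpy 2.4.6, matplotlib 3.10.9).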

Additional observations from a re-analysis of the deposited data

How the results depend on the processing

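MT2A and MT1X were called lower under every alternative that was run. With all libraries kept they were at -1.12 to -0.46 and -0.93 to -0.27 (limma, adjusted p up to 0.0099 and 0.0223). Without any one library they were at -0.51 to -0.44 and -0.33 to -0.27 (limma, adjusted p up to 0.00887 and 0.0235). Members called numbered 2, or 3 as deposited, where SLC30A1 was added. As deposited, 10643 rows were called, with 3 zinc exporters, 10 importers, 10 copper rows, 14 stress genes and 5 neighbours. STRN3 was then at 0.24 and not called, and the metallothionein sums were at -1.0434 (members) and -1.0420 (all rows). Signs turned as deposited for MTF1 (-0.37), MT4 (-0.18), SLC30A5 (-0.43), SLC30A9 (-0.0455), SLC30A3 (-0.18), SLC39A10 (-0.23), SLC39A7 (-0.54), COMMD1 (-0.49), GCLC (-0.0071), HMOX1 (-0.30) and OGFOD1 (-0.46), the median row being at -0.57. The protein-coding total gave sums of -0.4455 and -0.4441 and 3 neighbours. Scaling to the 75th percentile and the filter at 5 TPM each gave 1 exporter, and no filter gave 1 importer and 2 stress genes. Replicate numbers did not pair the libraries (correlation of deviations 0.057, -0.0213 and -0.0804 for numbers 1, 2 and 3), and the replicate block gave 1745 rows, 1 exporter, 0 importers and 2 stress genes. Without any one library, 1499 to 2147 rows, 0 to 1 importers, 2 to 4 stress genes and 1 to 2 neighbours were called, STRN3 was at 0.67 to 0.89, and the sums at -0.4151 to -0.3685 and -0.4117 to -0.369. Without any one library MTF1 ranged over -0.2343 to 0.2999 and MT4 over -0.3311 to 0.5806. MTF1 was below 0 without siSTRN3 replicate 1, and MT4 was at -0.16, -0.15 and -0.33 without siSTRN3 replicate 1, siSTRN3 replicate 2 and siNC replicate 3. The causes of these shifts were not tested. TPM keep no read number, so the precision of low genes such as MTF1 and MT4 is unknown.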
